A study of Mus musculus with 18 samples.

Results

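Sox2, Sox10, Tfap2a, Tfap2b, Foxd3, Pax3, Ets1, Snai1, Snai2 and Twist1 are transcription factors known for specifying neural crest (NC) cells, keeping them multipotent or releasing them from the neuroepithelium. These 10 genes were chosen by name, not by a threshold on a measured value, and were taken by gene symbol from the 55335 gene identifiers of the RNA-seq counts. The data come from 18 libraries of O9-1 cells, an NC line of wildtype genotype first isolated from early mouse embryos, cultured in osteoblast differentiation medium and harvested at d2.5 or d5. On each day 3 libraries came from cells given a scrambled siRNA (siCtrl) without FGF2 (Ctrl+vehicle), 3 from cells given siCtrl with FGF2 (Ctrl+FGF2) and 3 from cells given siRNA pools against Yap and Taz with FGF2 (Y/T dKD+FGF2). Y/T dKD libraries without FGF2 were not analysed here, so the knockdown was read only in the presence of FGF2. Per the labels d2.5 and d5 belong to different batches, and day and batch therefore cannot be told apart. Every library came from the same line, and the replicates of a group are not described as separate derivations, so p-values measure the spread between these samples, which may be technical.

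NC cells arise at the border of the neural plate, where Pax3 and Tfap2 factors act together with FGF, Wnt and BMP signals. Foxd3, Ets1, Snail factors and Sox10 are then switched on as the cells leave the neural tube through an epithelial-to-mesenchymal transition (EMT), with Snail and Twist proteins binding E-boxes (DNA motifs of the form CANNTG). In the head these cells form mesenchyme and bone, Sox10 is kept mainly in glial and pigment lineages, Twist1 is kept in cranial mesenchyme and sutures, and Sox2 is used as a marker of stem-like cells.

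The libraries held between 10377151 and 14698525 counts on genes (median 12330911). Levels below are normalized CPM, which are counts scaled to a common library size by TMM factors over the 18 libraries, with the SD over 3 libraries. A gene was called changed where edgeR's quasi-likelihood test gave a Benjamini-Hochberg adjusted p under 0.05 over all genes tested. In the Y/T dKD+FGF2 libraries Yap1 stood at 51.5% of its Ctrl+FGF2 level at d2.5 and 46% at d5, and Wwtr1, which encodes Taz, at 60.8% and 57.5%, so the knockdown was partial. FGF2 raised Wwtr1 itself at d2.5 (log2 fold change 0.65, adjusted p = 1.3e-16), from 140 ± 1.86 CPM in Ctrl+vehicle to 221 ± 2.96 in Ctrl+FGF2 (SD, n = 3), and the d2.5 Y/T dKD+FGF2 level of 135 ± 5.96 CPM was close to that of Ctrl+vehicle.

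Promoter sequence is shown for 3 of the factors, chosen after their values were seen because Snai1 had the largest FGF2 response at d2.5, Twist1 was the most abundant factor per length in 5 of the 6 groups and Sox2 is the stemness marker. Each run is the 250 bases before the start site, 5′ to 3′ on the gene's own strand, from RefSeq on GRCm38.p6. They lie at chr2:167537945-167538194 (Snai1), chr12:33957421-33957670 (Twist1) and chr3:34649745-34649994 (Sox2), all on the plus strand, and the RefSeq start of Sox2 lies upstream of the GENCODE start given further on. Capitals mark a match to a searched motif.
Snai1: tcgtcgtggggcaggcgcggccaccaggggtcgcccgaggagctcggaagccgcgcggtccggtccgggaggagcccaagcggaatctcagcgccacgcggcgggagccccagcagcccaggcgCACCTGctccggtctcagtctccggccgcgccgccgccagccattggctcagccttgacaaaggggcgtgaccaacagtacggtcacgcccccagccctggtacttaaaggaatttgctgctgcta
Twist1: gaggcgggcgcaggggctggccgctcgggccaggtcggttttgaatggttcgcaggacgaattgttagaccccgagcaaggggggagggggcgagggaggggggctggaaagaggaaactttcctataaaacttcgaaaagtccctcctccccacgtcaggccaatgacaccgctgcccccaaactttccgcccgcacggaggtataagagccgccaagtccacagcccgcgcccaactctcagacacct
Sox2: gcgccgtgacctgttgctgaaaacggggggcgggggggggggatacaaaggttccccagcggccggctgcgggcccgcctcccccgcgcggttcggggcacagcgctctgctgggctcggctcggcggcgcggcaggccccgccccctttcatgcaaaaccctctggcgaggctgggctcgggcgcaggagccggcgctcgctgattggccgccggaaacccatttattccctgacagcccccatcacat
The motifs searched, on both strands, were GGAATG (bound by Tead factors, the DNA-binding partners of Yap and Taz), TGANTCA (AP-1), TGACGTCA (CREB), the E-boxes CAGGTG and CATCTG, and CCGGAAGT (Ets factors). No matches overlapped. The Snai1 window held CACCTG, starting 126 bases before the start site, the reverse complement of CAGGTG, which 17.2% of the 32851 RefSeq promoter windows of this length hold on either strand. The Twist1 and Sox2 windows held no match. Across all promoters GGAATG was present in 12.6%, TGANTCA in 6.75%, TGACGTCA in 1.55%, CATCTG in 14.4% and CCGGAAGT in 2.88%. Among the windows of Tfap2a, Tfap2b and Foxd3 the only match was TGACGTCA in that of Foxd3. Promoters of Sox10, Pax3, Ets1 and Snai2 were not analysed here.

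Sox10, Foxd3 and Tfap2b were too low to read in these cells. Sox10, the factor of migrating NC and of glial and pigment lineages, lies on chromosome 15 from 79154908 to 79165240 (minus strand, GENCODE M21 on GRCm38) and had 0 counts in each of the 18 libraries. A total of 0 over 18 libraries allows up to 0.013 CPM for the pooled data, and a 0 in a single library allows between 0.193 and 0.305 CPM (3 counts of the library's total, counting error only). Foxd3, an early specifier that holds NC cells undifferentiated, lies on chromosome 4 from 99656299 to 99658622 (plus strand) and also had 0 counts in every library. Tfap2b, a paralog of Tfap2a, lies on chromosome 1 from 19208914 to 19238576 (plus strand) and had 76 counts in all, between 0 and 12 per library. Its highest group mean was 0.545 CPM in d2.5 Ctrl+vehicle, and it did not pass the filter on low counts on either day. The other 7 factors passed the filter on both days and were tested.

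**Figure D1:**
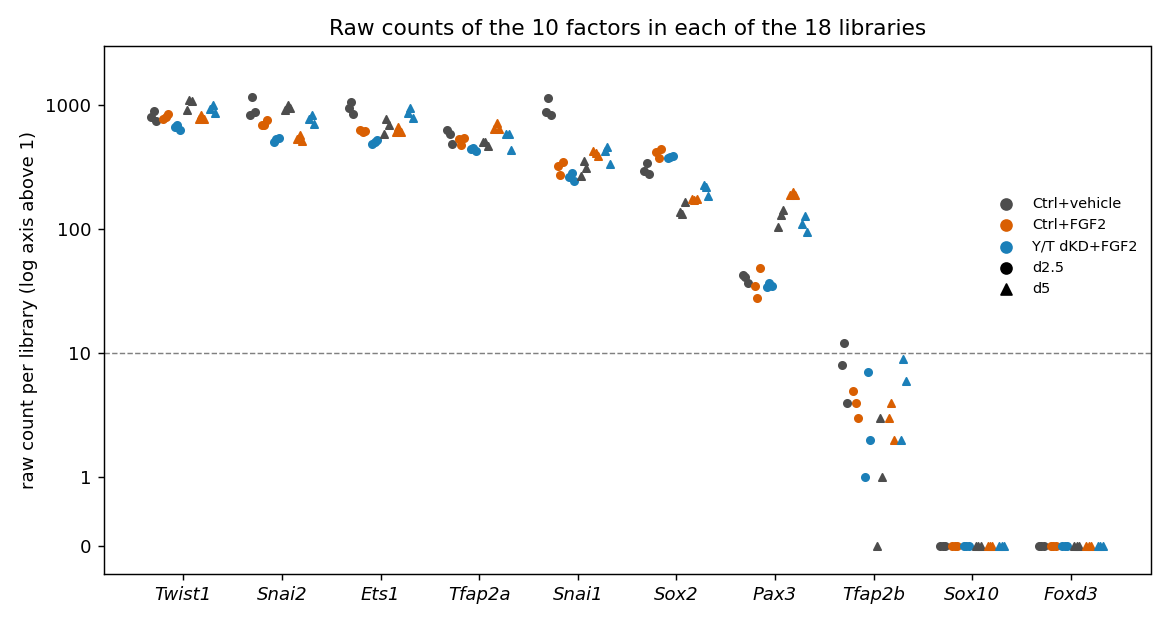
Raw counts of the 10 factors (x axis) in each of the 18 libraries, on a y axis that is logarithmic above 1 count, coloured by group, with circles for d2.5 and triangles for d5. The dashed line is at 10 counts. Sox10 and Foxd3 sit at 0 in all libraries, Tfap2b between 0 and 12 counts, Pax3 between 28 and 200, and the other 6 factors at 133 counts or more.

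Other NC and lineage genes were read in the same way to check the labelled cell type. Of 8 surface and carrier genes of migrating NC, 3 passed the filter at d2.5 and 2 at d5, and Ngfr, Ednrb, Kit, Ret and Cdh6 were tested on neither day. Of the glial markers, Fabp7 had 0 counts, Gfap 9 and S100b 25 over all 18 libraries. Dct, Tyr and Tyrp1 had 0 counts throughout, whereas Mitf, a factor of pigment cells that other cells also express, stood at 16.6 to 81.1 CPM. None of 7 neuronal markers was tested and 5 of them had no count. Mesenchymal Prrx1 stood at 1300 to 2220 CPM and the osteoblast collagen gene Col1a1 at 2010 to 31900 CPM. Other markers of these fates were low, with osteoblast Bglap at 0.0259 to 2.69 CPM and mesenchymal Thy1 at 0.057 to 0.743 CPM over the groups, and with Alpl, an osteoblast phosphatase, at 0.14 CPM in d2.5 Ctrl+FGF2 and 115 CPM in d2.5 Ctrl+vehicle.

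Set per kilobase of merged exons, which allows levels of different genes to be compared, Twist1 was the most abundant of the 10 factors in every group but d2.5 Ctrl+vehicle, at 34.5 CPM per kb in d2.5 Ctrl+FGF2 and 57.3 in d5 Ctrl+vehicle. In d2.5 Ctrl+vehicle Snai1 led at 40.7 ± 4.21 CPM per kb (SD, n = 3), followed by Twist1 at 34.7 ± 0.861 and Snai2 at 33 ± 4.35. The SDs of Twist1 and Snai2 overlapped in that group, so their order could not be told. Those of Snai1 and Snai2 also overlapped, although Snai1 was above Snai2 in each library (ratios per length 1.18 to 1.31). Sox2, Tfap2a and Ets1 formed a middle range of 4.76 to 14.9 CPM per kb over the 6 groups. Snai1 also lay in this range in d2.5 Ctrl+FGF2 (13.5 ± 1.08 CPM per kb) and d2.5 Y/T dKD+FGF2 (13 ± 0.858). Sox2 was at 13.9 ± 0.589 and 14.9 ± 0.351 in the same groups. Pax3 was at 0.419 to 2.71 CPM per kb and Tfap2b at no more than 0.086. In d5 Y/T dKD+FGF2, Sox2 and Ets1 had the same level, 9.11 CPM per kb. Per kb of the longest transcript Ets1 was at 15.2 and Sox2 at 9.11, so their order depended on the length used. In d2.5 Ctrl+vehicle Sox2, Tfap2a and Ets1 were at 10.3, 8.06 and 7.81 per kb of merged exons. Per kb of the longest transcript they were at 10.3, 11.3 and 13, the reverse order. Sox2 and Ets1 also changed order in d5 Ctrl+FGF2 (7.4 and 6.48 against 7.4 and 10.8).

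**Figure D2:**
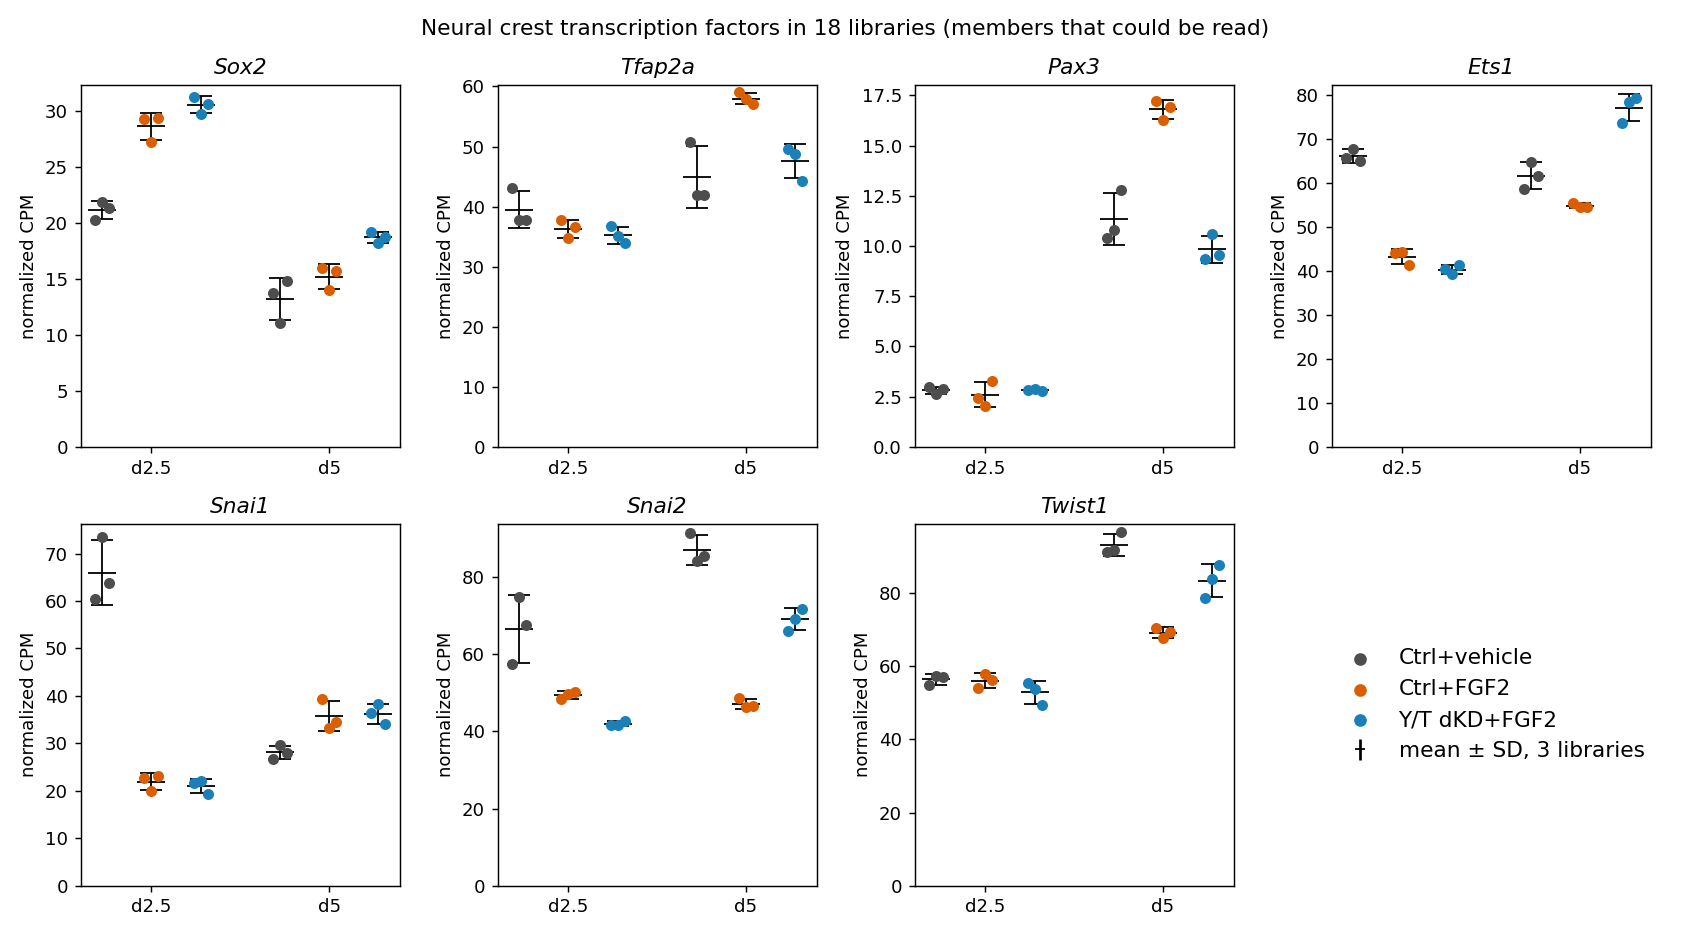
Normalized CPM (y axis, from 0) of the 7 factors that could be read, in each library of the 3 groups at d2.5 and d5. Points are libraries and black bars the mean and SD of 3. Snai1 is highest in d2.5 Ctrl+vehicle (60.5 to 73.6 CPM), Pax3 is highest in d5 Ctrl+FGF2 (16.3 to 17.2 CPM) and Twist1 in d5 Ctrl+vehicle (91.2 to 96.7 CPM).

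Ctrl+FGF2 against Ctrl+vehicle at d2.5 shows what FGF2 did to the factors early in osteogenic induction. FGF2 lowered the EMT factors Snai1 and Snai2 and the specifier Ets1 and raised Sox2, which made 4 of the 7 tested factors called, 1 higher and 3 lower. Among all 13677 genes tested 67.6% were called, so the members' count lies near the background. The 7 factors had a median log2 fold change of −0.13, against 0.00 over all genes, of which 33.5% were called higher and 34.1% lower. Tfap2a, Pax3 and Twist1 did not pass the test.

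Snai1 encodes the Snail zinc-finger repressor of E-cadherin and lies on chromosome 2 from 167538195 to 167542814 (plus strand). At d2.5 it was at 60.5, 73.6 and 63.9 CPM in Ctrl+vehicle and at 22.7, 19.9 and 23.2 CPM in Ctrl+FGF2. The groups were far apart, with every Ctrl+FGF2 library below every Ctrl+vehicle library, a separation seen in 70.5% of all genes tested. The log2 fold change was −1.60 (SE 0.07, adjusted p = 8.3e-19), to 32.9% of the Ctrl+vehicle level. With Yap and Taz knocked down, Snai1 was at 21.6, 22 and 19.4 CPM, which overlapped the Ctrl+FGF2 libraries (log2 fold change −0.07, 95% interval −0.25 to 0.11, adjusted p = 0.6). Against Ctrl+vehicle the d2.5 Y/T dKD+FGF2 level was lower by a log2 fold change of −1.68 (adjusted p = 6.7e-19).

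At d5 the FGF2 response of Snai1 had the opposite sign. Its levels were 26.8, 29.6 and 28 CPM in Ctrl+vehicle and 39.3, 33.2 and 34.6 CPM in Ctrl+FGF2. All Ctrl+FGF2 libraries lay above all Ctrl+vehicle libraries, with a log2 fold change of 0.35 (SE 0.07, adjusted p = 8e-04). The Y/T dKD+FGF2 libraries, at 36.3, 38.3 and 34 CPM, again overlapped Ctrl+FGF2 (log2 fold change 0.02, 95% interval −0.13 to 0.17, adjusted p = 0.87). The difference of the FGF2 effect between the days was 1.93 on the log2 scale (SE 0.11, adjusted p = 5.4e-15), in a comparison in which 60.9% of 14198 genes (31.8% higher, 29.1% lower) and 6 of the 7 factors were called. In the vehicle cultures alone Snai1 fell by 1.23 on the log2 scale from d2.5 to d5 (adjusted p = 7.6e-15), and in the Ctrl+FGF2 cultures it rose by 0.70 (adjusted p = 1e-08).

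Snai2 encodes Slug, the second Snail repressor of migrating NC, and lies on chromosome 16 from 14705852 to 14709385 (plus strand). FGF2 lowered it on both days. At d2.5 it was at 57.4, 74.9 and 67.6 CPM in Ctrl+vehicle, 48.3, 49.8 and 50.2 with Ctrl+FGF2 and 41.6, 41.6 and 42.7 with Y/T dKD+FGF2. No libraries of neighbouring groups overlapped, and the steps were −0.44 for FGF2 (SE 0.06, adjusted p = 3e-07) and −0.24 for the knockdown (SE 0.07, adjusted p = 0.0097) on the log2 scale. Snai2 was the only factor called for the knockdown at d2.5, where 24.5% of all genes tested were called and where the absolute log2 fold changes of the factors had a median of 0.09, against 0.13 over all genes.

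At d5 Snai2 was at 91.4, 84.1 and 85.6 CPM in Ctrl+vehicle, 48.7, 46.3 and 46.5 with Ctrl+FGF2 and 66.1, 69.3 and 71.8 with Y/T dKD+FGF2. FGF2 left 54.7% of the Ctrl+vehicle level (log2 fold change −0.87, SE 0.05, adjusted p = 5e-10). The knockdown level lay between the other groups with no overlap of libraries, above Ctrl+FGF2 by 0.54 (SE 0.05, adjusted p = 4e-07) and below Ctrl+vehicle by a log2 fold change of −0.33 (adjusted p = 4e-05). The knockdown thus went with lower Snai2 at d2.5 and with higher Snai2 at d5, and that difference between days was 0.79 (SE 0.10, adjusted p = 5.6e-07), in a comparison in which 20.9% of all genes (11.6% higher, 9.35% lower) and 4 of the 7 factors were called. The FGF2 effect was lower at d5 than at d2.5 by a difference of −0.45 (adjusted p = 9.8e-05).

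The balance of the Snail genes changed with group and day. Per length, the Snai1 to Snai2 ratio was 1.24 ± 0.0681 (SD, n = 3) in d2.5 Ctrl+vehicle, 0.553 ± 0.0473 in d2.5 Ctrl+FGF2 and 0.624 ± 0.0498 in d2.5 Y/T dKD+FGF2. At d5 it was 0.404 ± 0.0369 in Ctrl+vehicle, 0.943 ± 0.0577 with Ctrl+FGF2 and 0.654 ± 0.0557 with Y/T dKD+FGF2. The vehicle cultures therefore had the highest ratio at d2.5 and the lowest at d5, with no overlap with the FGF2 cultures of the same day. The lowest and highest library were 1.18 and 1.31 in d2.5 Ctrl+vehicle and 0.366 and 0.439 in d5 Ctrl+vehicle. These ratios are given as values, with no test.

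**Figure D3:**
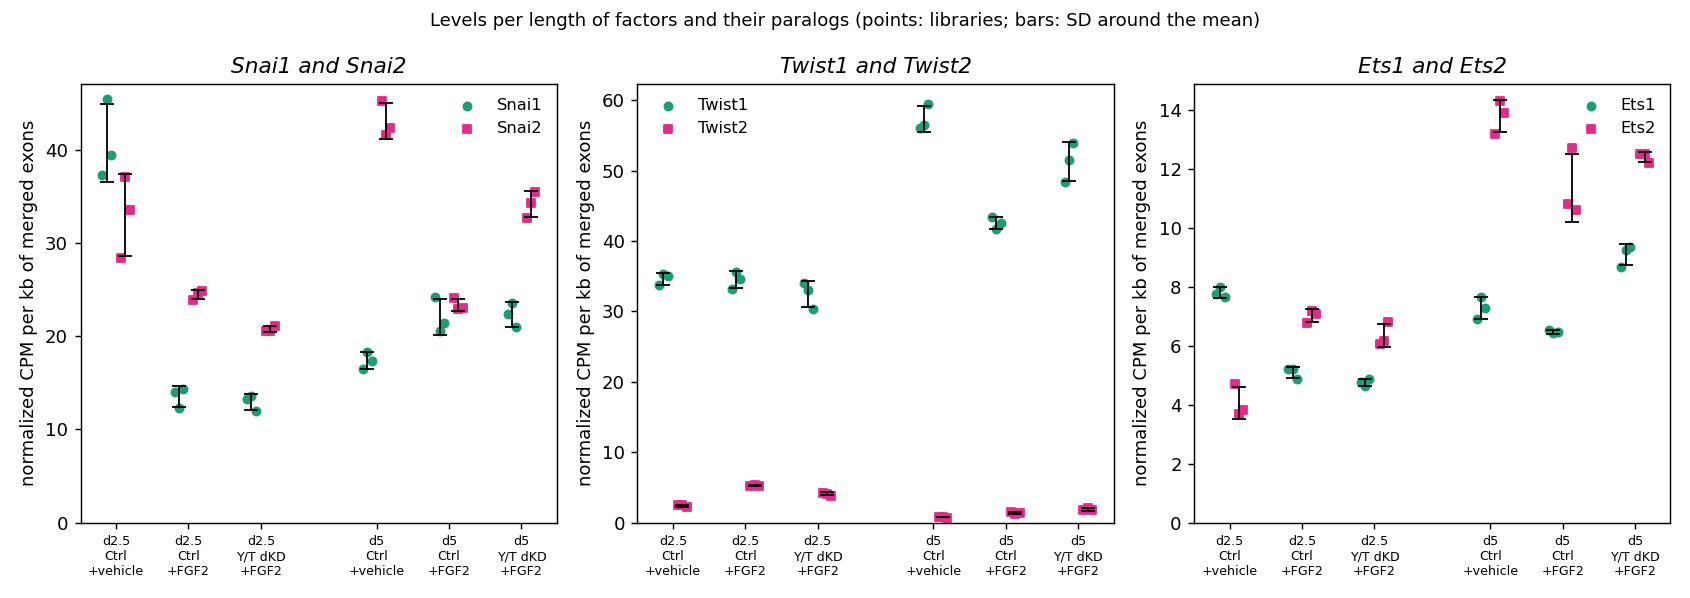
Levels per length (normalized CPM per kb of merged exons, y axes from 0) of Snai1 and Snai2, Twist1 and Twist2, and Ets1 and Ets2 in the 6 groups. Points are libraries and bars the SD around the mean of 3. The mean of Snai1 exceeds that of Snai2 only in d2.5 Ctrl+vehicle (mean ratio 1.24), Twist1 exceeds Twist2 in every group (mean ratios 6.56 to 71.2), and Ets1 exceeds Ets2 only in d2.5 Ctrl+vehicle (mean ratio 1.94).

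Twist1 encodes a bHLH factor of cranial mesenchyme whose loss is known to fuse sutures, and lies on chromosome 12 from 33957671 to 33959829 (plus strand). At d2.5 it was at 54.8, 57.5 and 57 CPM in Ctrl+vehicle, 54, 57.9 and 56.4 with Ctrl+FGF2 and 55.4, 53.8 and 49.5 with Y/T dKD+FGF2, and the libraries of the 3 groups overlapped. The FGF2 log2 fold change was −0.02 with a 95% interval of −0.12 to 0.08 (adjusted p = 0.74), and that of the knockdown −0.09 with an interval of −0.20 to 0.01 (adjusted p = 0.2). Y/T dKD+FGF2 against Ctrl+vehicle was at −0.11 (adjusted p = 0.051), which was called without Ctrl+vehicle replicate 1 (−0.14, adjusted p = 0.027) or Y/T dKD+FGF2 replicate 1 (−0.13, adjusted p = 0.043). With all libraries kept, that value was also called with upper-quartile factors (−0.14, adjusted p = 0.016) and with at least 10 counts in every sample (−0.12, adjusted p = 0.04). At d5 Twist1 was at 91.2, 91.8 and 96.7 CPM in Ctrl+vehicle, 70.6, 67.8 and 69.4 with Ctrl+FGF2 and 78.8, 83.8 and 87.8 with Y/T dKD+FGF2. The groups no longer overlapped. FGF2 lowered Twist1 by a log2 fold change of −0.42 (SE 0.05, adjusted p = 1.5e-06), and in Y/T dKD+FGF2 it was above Ctrl+FGF2 by 0.26 (SE 0.05, adjusted p = 0.00043). Against Ctrl+vehicle the d5 Y/T dKD+FGF2 libraries were lower, at −0.15 (adjusted p = 0.013), a call lost without Ctrl+vehicle replicate 3 (−0.13, adjusted p = 0.072) or without Y/T dKD+FGF2 replicate 1 (−0.12, adjusted p = 0.084). Both effects differed between the days, by −0.42 for FGF2 (adjusted p = 6.8e-06) and by 0.35 for the knockdown (adjusted p = 6e-04).

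Ets1, a winged helix-turn-helix factor of cranial NC and of vessels, lies on chromosome 9 from 32636221 to 32757820 (plus strand). At d2.5 it was at 65.7, 67.9 and 65 CPM in Ctrl+vehicle, 44.2, 44.3 and 41.4 with Ctrl+FGF2 and 40.5, 39.3 and 41.3 with Y/T dKD+FGF2. The Ctrl+FGF2 libraries were all below Ctrl+vehicle (log2 fold change −0.63, SE 0.05, adjusted p = 1e-12). The knockdown libraries lay just below Ctrl+FGF2 without passing the test (log2 fold change −0.11, 95% interval −0.22 to 0.00, adjusted p = 0.15), a separation of libraries that 39.4% of all genes tested also showed. At d5 Ets1 was at 58.6, 64.9 and 61.7 CPM in Ctrl+vehicle, 55.6, 54.5 and 54.7 with Ctrl+FGF2 and 73.7, 78.6 and 79.4 with Y/T dKD+FGF2. The knockdown libraries were now the highest of the day, above Ctrl+FGF2 by 0.48 (SE 0.05, adjusted p = 7.6e-07) and above Ctrl+vehicle by 0.33 (SE 0.05, adjusted p = 3.8e-05). The d5 FGF2 step was small, −0.16 (SE 0.05, adjusted p = 0.017), and was no longer called without Ctrl+vehicle replicate 2 (−0.12, adjusted p = 0.085) or with DESeq2 (−0.17, adjusted p = 0.056). Between the days the FGF2 effect differed by 0.44 (adjusted p = 2.8e-06) and the knockdown effect by 0.59 (adjusted p = 5.5e-07).

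Pax3, a paired-box factor of the neural plate border and of pigment and muscle precursors, lies on chromosome 1 from 78101267 to 78197134 (minus strand). It was the factor that rose most from d2.5 to d5. At d2.5 it had only 28 to 49 counts per library, with 2.97, 2.64 and 2.86 CPM in Ctrl+vehicle, 2.46, 2.04 and 3.27 with Ctrl+FGF2 and 2.81, 2.88 and 2.76 with Y/T dKD+FGF2. The 3 groups overlapped, and at this depth no FGF2 effect was detectable (log2 fold change −0.12, 95% interval −0.52 to 0.27, adjusted p = 0.59), nor a knockdown effect (0.10, interval −0.31 to 0.51, adjusted p = 0.76).

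At d5 Pax3 was at 10.4, 10.8 and 12.8 CPM in Ctrl+vehicle, 17.2, 16.3 and 16.9 with Ctrl+FGF2 and 9.35, 10.6 and 9.57 with Y/T dKD+FGF2. Ctrl+FGF2 stood above the other groups without overlap, by 0.57 against Ctrl+vehicle (SE 0.10, adjusted p = 0.00016), and the knockdown level was lower than Ctrl+FGF2, at −0.77 (SE 0.10, adjusted p = 1.6e-05). The knockdown and vehicle libraries overlapped, with a log2 fold change of −0.20 between them and a 95% interval of −0.43 to 0.03 (adjusted p = 0.16). The effects differed between the days by 0.67 for FGF2 (SE 0.21, adjusted p = 0.006) and by −0.88 for the knockdown (SE 0.21, adjusted p = 0.0033). From d2.5 to d5 Pax3 rose 4.03-fold with Ctrl+vehicle, 6.41-fold with Ctrl+FGF2 and 3.49-fold with the knockdown (adjusted p = 8.5e-14, 6.1e-18 and 2.1e-12).

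Tfap2a, which encodes AP-2α, a border and specifier factor needed for the cranial NC, lies on chromosome 13 from 40715302 to 40738376 (minus strand). At d2.5 it was at 43.1, 37.7 and 37.7 CPM in Ctrl+vehicle, 37.7, 34.7 and 36.6 with Ctrl+FGF2 and 36.7, 35.1 and 33.9 with Y/T dKD+FGF2. Neighbouring groups touched or overlapped. The FGF2 log2 fold change of −0.13 (95% interval −0.26 to −0.01) missed the threshold with an adjusted p of 0.054. It was called, at −0.16 each time, without Ctrl+vehicle replicate 2 (adjusted p = 0.026), Ctrl+vehicle replicate 3 (0.036) or Ctrl+FGF2 replicate 1 (0.047). The knockdown step was −0.05 (adjusted p = 0.59). Against Ctrl+vehicle the d2.5 knockdown level was called lower (−0.19, adjusted p = 0.0093), a call lost without Ctrl+vehicle replicate 1 (−0.12, adjusted p = 0.097) or Y/T dKD+FGF2 replicate 3 (−0.16, adjusted p = 0.052). At d5 it was at 50.8, 42 and 42 CPM in Ctrl+vehicle, 59, 57.9 and 57.1 with Ctrl+FGF2 and 49.6, 48.8 and 44.3 with Y/T dKD+FGF2. Ctrl+FGF2 was above the other groups with no overlap, by 0.39 against Ctrl+vehicle (SE 0.07, adjusted p = 0.00019), and the knockdown libraries were lower than Ctrl+FGF2, at −0.29 (SE 0.07, adjusted p = 0.0037). Against Ctrl+vehicle the d5 knockdown value was 0.10 (adjusted p = 0.3), called only without Ctrl+vehicle replicate 1 (0.19, adjusted p = 0.02). Between the days the FGF2 effect differed by 0.50 (adjusted p = 4.6e-05). For the knockdown effect the difference of −0.24 was not called (adjusted p = 0.08), and without d5 Ctrl+vehicle replicate 1 it was (−0.24, adjusted p = 0.042). Antisense genes overlap Tfap2a, the longest overlap being that of Gm26688 at 7.75% of its exon bases, and the strand of the reads was used to count it.

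Sox2, the HMG-box factor of neural and pluripotent stem cells, lies on chromosome 3 from 34650405 to 34652461 (plus strand) inside Sox2ot, a longer transcript of the same strand that shares 0 exon bases with it. Its levels at d2.5 were 20.3, 21.9 and 21.4 CPM in Ctrl+vehicle, 29.3, 27.3 and 29.4 with Ctrl+FGF2 and 31.3, 29.8 and 30.7 with Y/T dKD+FGF2. FGF2 raised it with no overlap, by a log2 fold change of 0.43 (SE 0.07, adjusted p = 1.4e-06). The knockdown libraries lay just above Ctrl+FGF2, with a log2 fold change of 0.08 and a 95% interval of −0.05 to 0.21 (adjusted p = 0.37), and above Ctrl+vehicle by 0.51 (SE 0.07, adjusted p = 6.7e-08). At d5 Sox2 was at 13.8, 11.1 and 14.8 CPM in Ctrl+vehicle, 16, 14 and 15.7 with Ctrl+FGF2 and 19.2, 18.2 and 18.8 with Y/T dKD+FGF2. Ctrl+FGF2 overlapped Ctrl+vehicle (log2 fold change 0.22, 95% interval −0.01 to 0.45, adjusted p = 0.11), and without Ctrl+vehicle replicate 3 the difference was called (0.31, adjusted p = 0.045). Y/T dKD+FGF2 was above Ctrl+vehicle by 0.52 (SE 0.11, adjusted p = 7e-04).

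The d5 knockdown step of Sox2 relative to Ctrl+FGF2, 0.30 (SE 0.10, adjusted p = 0.034), was the least stable call of the factors. It was lost without Ctrl+FGF2 replicate 2 (0.24, adjusted p = 0.13) or replicate 3 (0.32, adjusted p = 0.062), without Y/T dKD+FGF2 replicate 1 (0.27, adjusted p = 0.11), replicate 2 (0.32, adjusted p = 0.062) or replicate 3 (0.30, adjusted p = 0.08), and with DESeq2 (0.30, adjusted p = 0.1). Neither effect on Sox2 was shown to differ between the days. The difference was −0.23 for FGF2 (95% interval −0.48 to 0.02, adjusted p = 0.1) and 0.21 for the knockdown (interval −0.02 to 0.44, adjusted p = 0.21). Without d5 Ctrl+vehicle replicate 2 the difference of the FGF2 effect was −0.35 and was called (adjusted p = 0.011).

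**Figure D4:**
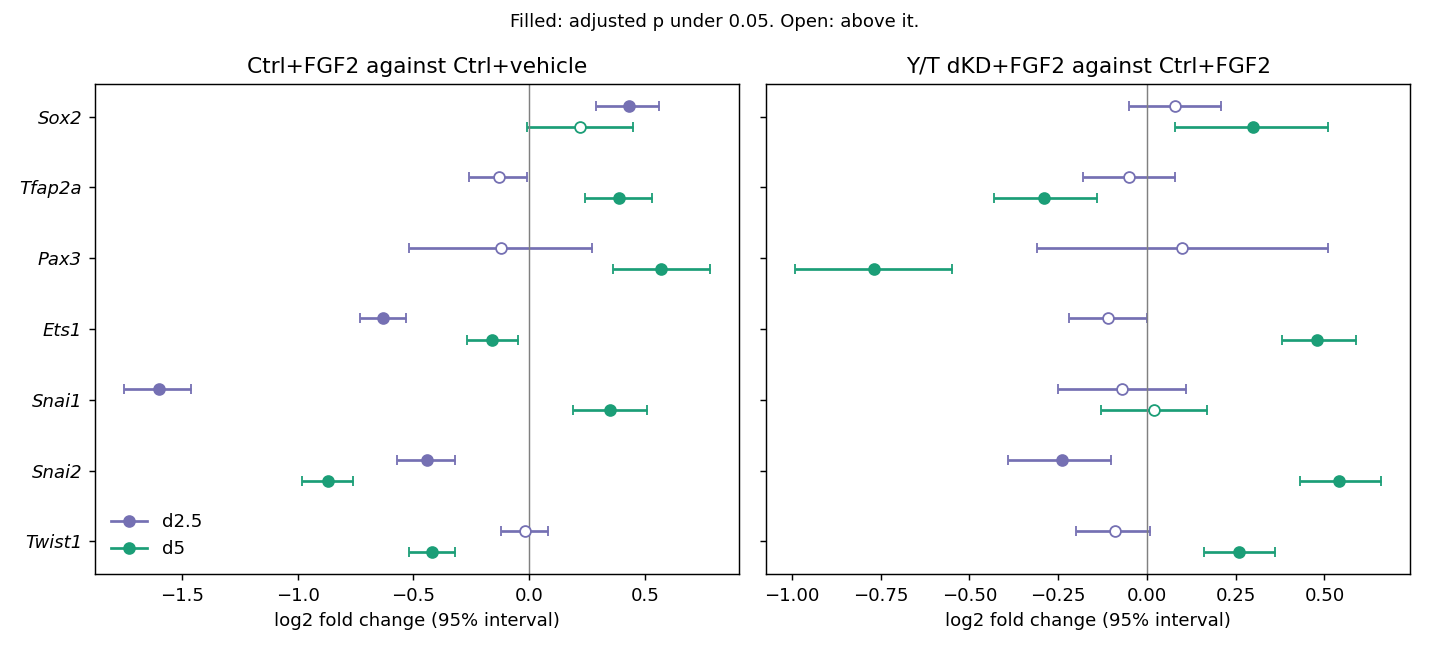
Log2 fold changes (x axis, with 95% intervals) of the 7 tested factors for Ctrl+FGF2 against Ctrl+vehicle (left) and Y/T dKD+FGF2 against Ctrl+FGF2 (right), at d2.5 (purple) and d5 (green). Filled points have an adjusted p under 0.05. Snai1 moves from −1.60 to 0.35 under FGF2, and at d2.5 only Snai2 (−0.24) is filled on the right. The panels share the Ctrl+FGF2 libraries.

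At d5 the factors as a set moved in both directions. Under FGF2, 6 of 7 were called, with Tfap2a, Pax3 and Snai1 higher and Ets1, Snai2 and Twist1 lower, where 47.2% of 13304 genes tested were called, 23.5% higher and 23.7% lower. For Y/T dKD+FGF2 against Ctrl+FGF2, 6 of 7 were called, with Sox2, Ets1, Snai2 and Twist1 higher and Tfap2a and Pax3 lower, where the share of all genes was 31.7% (15.6% higher, 16.1% lower). The libraries did not overlap for 6 factors in each comparison, and for 54.5% and 45% of all genes. Absolute log2 fold changes of the factors had a median of 0.39 for FGF2 and 0.30 for the knockdown at d5, against 0.22 and 0.15 over all genes. These comparisons share the Ctrl+FGF2 libraries, so opposite signs in them are not independent. Set directly against Ctrl+vehicle at d5, Y/T dKD+FGF2 had Sox2, Ets1 and Snai1 higher and Snai2 and Twist1 lower, 5 of 7 called, where 41.8% of all genes were called (20.7% higher, 21.1% lower) and 51.9% had no overlap of libraries. At d2.5 the same comparison called 5 of 7 (Sox2 higher, and Tfap2a, Ets1, Snai1 and Snai2 lower), where the share of all genes was 69.8% (34.1% higher, 35.7% lower) and 71.1% had no overlap. In bulk RNA a lower level cannot be told apart from fewer cells that express the gene.

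From d2.5 to d5 the factors moved in different directions. Sox2 fell in all 3 conditions, with log2 fold changes of −0.69 for Ctrl+vehicle, −0.92 for Ctrl+FGF2 and −0.71 for Y/T dKD+FGF2 (adjusted p = 5e-08, 1.2e-11 and 1.8e-09). Twist1 rose in all 3, by 0.72, 0.30 and 0.66 (adjusted p = 8.1e-14, 3.4e-06 and 9.6e-13). Snai2 rose by 0.38 in Ctrl+vehicle (adjusted p = 2.8e-06) and by 0.72 in Y/T dKD+FGF2 (adjusted p = 8e-11), whereas its value in Ctrl+FGF2 was −0.07 (95% interval −0.21 to 0.07, adjusted p = 0.35). Ets1 rose by 0.34 with Ctrl+FGF2 and by 0.93 with the knockdown (adjusted p = 5.5e-07 and 1.7e-16), and its value in Ctrl+vehicle was −0.10 (adjusted p = 0.068), which was called without d5 Ctrl+vehicle replicate 2 (−0.14, adjusted p = 0.028) and with upper-quartile factors (−0.19, adjusted p = 0.00071). Tfap2a rose by 0.67 with Ctrl+FGF2 and by 0.44 with the knockdown (adjusted p = 1.6e-10 and 2e-06). Its rise of 0.18 in Ctrl+vehicle (adjusted p = 0.023) was not called without d2.5 replicate 2 (0.14, adjusted p = 0.099), d2.5 replicate 3 (0.15, adjusted p = 0.093) or d5 replicate 1 (0.09, adjusted p = 0.27) of that group. In all, 6 of 7 factors were called in Ctrl+vehicle, where 66.4% of all genes were called (33.1% higher, 33.2% lower) and 68.4% had no overlap of libraries. In Ctrl+FGF2 6 factors were called, against 80% of all genes (41.2% higher, 38.8% lower), with no overlap in 81.1%. For Y/T dKD+FGF2 all 7 were called, against 78.4% of all genes (40.3% higher, 38.1% lower), with no overlap in 79.8%.

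Paralogs of the factors were mostly too low to test. Of 16 paralogs 7 had no count in any library, among them Sox1, Sox3 and Pax7, and 4 passed the filter on each day. Sox9, the SoxE factor of cartilage and early NC and a paralog of the absent Sox10, stood at 164 ± 4.34 CPM in d2.5 Ctrl+vehicle, 80.5 ± 3.77 in d2.5 Ctrl+FGF2, 44.9 ± 1.69 in d5 Ctrl+vehicle and 83.7 ± 1.43 in d5 Ctrl+FGF2 (SD, n = 3). FGF2 thus lowered Sox9 at d2.5 by a log2 fold change of −1.04 (adjusted p = 1.5e-19) and raised it at d5 by 0.91 (adjusted p = 1.3e-10). The difference between the days was 1.93 (SE 0.07, adjusted p = 4.7e-20), the same size as that of Snai1. In Y/T dKD+FGF2 Sox9 was lower than in Ctrl+FGF2 on both days, by −0.26 at d2.5 (adjusted p = 0.00017) and −0.43 at d5 (adjusted p = 1.5e-06). The chondrocyte markers, which can mark another fate of these cells, summed to 541 to 762 CPM in d2.5 Ctrl+vehicle and 39.8 to 44.5 CPM in d2.5 Ctrl+FGF2, with Col2a1 at 460 and 0.984 CPM. At d5 the sums were 175 to 283 CPM in Ctrl+vehicle and 241 to 349 CPM in Ctrl+FGF2, with Acan higher by 2.33 (adjusted p = 1.6e-11), Col9a1 at −2.51 (adjusted p = 8.3e-05) and Col2a1 at 0.15, which was not called (adjusted p = 0.36). Their part in the Sox9 and Snai1 values was not tested.

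Twist2 and Ets2 showed other patterns than their partners. FGF2 raised Twist2 at d2.5 by 1.11 (adjusted p = 8.9e-12) and at d5 by 0.75 (adjusted p = 0.0024), but per length Twist1 remained 6.56 to 71.2 times as abundant in the group means. Ets2 rose with FGF2 at d2.5 by 0.78 (adjusted p = 5.1e-11), whereas Ets1 fell, at −0.63. With both changes the Ets1 to Ets2 ratio per length was 1.94 ± 0.268 in Ctrl+vehicle and 0.727 ± 0.0395 in Ctrl+FGF2 (SD, n = 3). At d5 Ets2 fell with FGF2, at −0.26 (adjusted p = 0.0016). Foxd1 was raised by FGF2 at d5 by 0.69 (adjusted p = 5.7e-05) and lowered in Y/T dKD+FGF2, at −0.47 relative to Ctrl+FGF2 (adjusted p = 0.0026), and at d2.5 its FGF2 value of 0.25 was not called (adjusted p = 0.15).

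Other NC regulators were mostly lower with FGF2 at d2.5. Of 21 genes listed, 14 were tested, 2 rose, 10 fell and 2 did not pass the test, and their median was −0.59 on the log2 scale. Over all genes tested 33.5% rose and 34.1% fell in that comparison, with a median of 0.00. Dlx5, at 0 to 38 counts per library and under the mean level required for naming by rule, was lower, at −4.13 (adjusted p = 7.2e-10). Above that level the most changed were Prdm1 (−2.91, adjusted p = 3.3e-19), Msx2 (−2.66, adjusted p = 4e-11), a BMP-responsive homeobox factor of skull bone, and Id2 (−2.21, adjusted p = 1.4e-17), an inhibitor of bHLH factors. At d5 5 of 13 tested rose and 4 fell (23.5% and 23.7% of all genes), with a median of 0.07, and Prdm1, Dlx5 and Msx2 were lower, at −1.19, −1.17 and −1.05. The knockdown called 4 higher and 1 lower of 14 at d2.5 (10.8% and 13.6% of all genes) and 5 higher and 4 lower of 13 at d5 (15.6% and 16.1%), where Prdm1 was higher by 1.36 (adjusted p = 9.6e-07). Zic1, Zic5 and Hand2 had no count.

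E-box partner factors, which dimerize with Twist1 or share sites with Snail repressors, were present except Hand1, which had no count. FGF2 at d2.5 moved all 5 tested, 3 up and 2 down, where 67.6% of all genes were called, with Tcf4 higher by 0.43 and Zeb1 and Zeb2 lower, at −0.52 and −0.44. At d5 FGF2 raised 1 and lowered 3 of 5 (47.2% of all genes called), with Tcf3 higher by 0.32 and Tcf12 lower, at −0.39. The knockdown raised 2 and lowered 1 of 5 at d2.5 (24.5% of all genes called), and raised 4 of 5 at d5 (15.6% of all genes higher), led by Tcf12 at 0.35 (adjusted p = 1.9e-06).

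Genes that EMT factors are known to act on were read next. Of 11 epithelial genes repressed by Snail factors only Epcam passed the filter, at d2.5, and Cdh1 (E-cadherin) had 70 counts in all 18 libraries. Epcam was at 0.255 CPM in d2.5 Ctrl+vehicle and 1.13 CPM in d2.5 Ctrl+FGF2, under the mean level required for naming by rule, and was called higher (log2 fold change 2.08, adjusted p = 6.4e-05). Of 5 mesenchymal genes, FGF2 raised 2 and lowered 2 on each day, against the shares of all genes given above. Cdh11, the cadherin of osteoblasts, was lower, at −2.63 at d2.5 and −1.13 at d5, and Vim, which encodes vimentin, was higher by 0.64 and 0.42. In Y/T dKD+FGF2 relative to Ctrl+FGF2, 1 of 5 was called higher at d2.5 (Cdh11, 0.84), and 2 were higher and 2 lower at d5, where Cdh11 was at 0.74, Vim at −0.65 and Cdh2 (N-cadherin) at −0.67. Over all genes tested 10.8% were called higher at d2.5, and 15.6% higher and 16.1% lower at d5.

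Among the genes of migrating NC, FGF2 raised Crabp1, a retinoic acid binding protein, by 1.84 at d2.5 (adjusted p = 3.8e-28) and lowered Erbb3 to −0.71 (adjusted p = 0.00025) and Itga4, which was under the mean level for naming by rule, to −2.21 (adjusted p = 4.3e-06). At d5 the 2 genes tested were lower, Itga4 at −4.60 (adjusted p = 1.3e-10) and Crabp1 at −0.48 (adjusted p = 0.0012), where 23.7% of all genes were called lower. Of 11 pluripotency genes, only Klf4 and Lin28b were tested and 7, Pou5f1 (Oct4) among them, had no count. Klf4 rose by 1.11 with FGF2 at d2.5 (adjusted p = 1.6e-17) and was lower at d5, at −0.93 (adjusted p = 1.5e-08), and in Y/T dKD+FGF2 it was lower than in Ctrl+FGF2 on both days (−0.21 and −0.30, adjusted p = 0.0032 and 0.0088). The higher Sox2 at d2.5 thus stood beside higher Klf4 and absent Pou5f1.

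Markers of other fates moved with the groups and are given beside the factors. The 8 osteoblast markers summed to 17200 to 17500 CPM in d2.5 Ctrl+vehicle, 9590 to 9840 in d2.5 Ctrl+FGF2 and 11700 to 12200 in d2.5 Y/T dKD+FGF2. At d5 the same sums were 32300 to 34500, 17800 to 19200 and 24500 to 26200 CPM. Col1a1 carried most of the d5 sums, at 31900, 16600 and 21800 CPM in the same order of groups, and the markers did not move as 1 group. In that order Col1a1 was at 12600, 2200 and 2010 CPM at d2.5, and Spp1 at 4000, 6910 and 8760 CPM. At d2.5 FGF2 raised 2 of the 7 tested, Dmp1 by 5.25 (adjusted p = 3.8e-35) and Spp1 by 0.78 (adjusted p = 7.3e-22), and lowered 5. Of all genes tested 33.5% were called higher and 34.1% lower in that comparison. At d5 FGF2 raised 4 of 8 (Runx2, Sp7, Spp1 and Dmp1) and lowered 4 (Alpl, Bglap, Ibsp and Col1a1), where the shares of all genes were 23.5% and 23.7%. Relative to Ctrl+FGF2, the knockdown at d5 had all 8 higher, where 15.6% of all genes were called higher. At d2.5 it had 4 of the 7 tested higher (Sp7, Ibsp, Spp1 and Dmp1) and Col1a1 lower, at −0.14 (adjusted p = 0.00049). Of all genes tested 10.8% were called higher and 13.6% lower in that d2.5 comparison. The 5 smooth muscle markers, led by Acta2, summed to 167 to 231 CPM in d2.5 Ctrl+vehicle and 22.7 to 23.7 in d2.5 Ctrl+FGF2. In d2.5 Y/T dKD+FGF2 they summed to 13.7 to 15.3 CPM. At d5 these sums were 2030 to 3070 CPM, highest in Ctrl+FGF2. The 5 mesenchyme markers summed to 2040 to 2060 CPM in d2.5 Ctrl+vehicle and 1560 to 1600 in d2.5 Ctrl+FGF2. In d2.5 Y/T dKD+FGF2 they summed to 1660 to 1740 CPM. At d5 they summed to 2860 to 3380 CPM, also highest in Ctrl+FGF2. The 4 endothelial and 3 blood markers summed to 3.87 CPM or less and 4.59 CPM or less, with Cdh5 at 0 and Ptprc at 8 counts in all. The part of these fates in the levels of the factors was not tested.

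The genes whose log2 levels followed each factor most closely over the 18 libraries were found by Pearson correlation among 12097 genes, as a description. The libraries share 6 group means, which set most of these values. Snai1 was followed by Fgd3 (r = 0.99), Cdk5rap3 and Sec61b (both 0.97), and Snai2 by P2ry10b (0.97), Fkbp11 (0.95) and Wif1 (0.94). Twist1 was followed by Fam167a and Enpp2 (both 0.98) and Nkd2 (0.97), Ets1 by Ankrd50 (0.97), Slc35f6 and Irx3 (both 0.96), and Tfap2a by Hsd17b4 (0.96), Serpinb9 and Rgma (both 0.95). Pax3 was followed by Frmd4b, Egfl6 and Kitl (all 0.99), and Sox2 by Spp1, Ptma and Ubash3b (all 0.98). Among the factors themselves r was highest between Pax3 and Tfap2a (0.89) and lowest between Pax3 and Sox2 (−0.85).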

How the data were processed

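Poly(A) RNA was sequenced in 18 libraries. For each library the authors deposited whole-number read counts of every gene in 3 columns, unstranded and by strand, not normalized. The submitters' processing notes name STAR, featureCounts, FastQC, Picard and mm10, with no versions. The reverse-strand counts were used here (96.0% to 96.6% of the stranded counts). Entries naming no gene (27.0% to 34.4% of a library) were left out. Of 55335 identifiers, 55154 matched GENCODE M21 on GRCm38 by stable identifier without version, Ets1 under another version.

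edgeR 4.0.16 in R 4.3.3 (TMM, filterByExpr with a minimum count of 10, quasi-likelihood test, Benjamini-Hochberg adjustment) was fitted to the 9 libraries of each day, with 13677 and 13304 genes tested, and to all 18 for the 14198 genes of the comparisons between days. SEs are the absolute log2 fold change over the square root of F, and intervals are 95%. DESeq2 1.42.0, RLE and upper-quartile factors, other filters, other sets of libraries in the fit, a replicate block, unstranded counts and leaving out each library were alternatives. Levels are CPM on TMM factors over 18 libraries. Libraries of a group differed by more than sampling noise, and none were duplicates.

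The members and gene lists were chosen with earlier results of these data known. Other genes were named by rule, up to 3 per list and comparison within a day, with the largest changes among those called, without overlap of replicates and averaging log2 CPM 1 or more. The tested paralogs, genes at 0 or named to show a level, and the genes most alike in pattern were named besides. Correlations used log2(CPM + 1).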

Additional observations from a re-analysis of the deposited data

Results flagged for a closer look

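For 6 factors the FGF2 effect differed between the days in the fit of all 18 libraries (d5 minus d2.5, log2): 1.93 for Snai1, 0.67 for Pax3, 0.50 for Tfap2a, 0.44 for Ets1, −0.45 for Snai2 and −0.42 for Twist1. For 4 factors the knockdown effect differed between the days: −0.88 for Pax3, 0.79 for Snai2, 0.59 for Ets1 and 0.35 for Twist1. The days are also separate batches in the sample annotation, so a batch that acted unlike on the groups cannot be told apart from the day. The Ctrl+FGF2 libraries enter both effects. With 3 libraries per group, single libraries were not tested for standing apart.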

How the results depend on the processing

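No log2 fold change of a factor that was called turned its direction under any alternative. Over the alternatives that kept all libraries, 609 values of factors kept their side of the threshold, 11 became called and 3 lost their call. The d2.5 FGF2 value of Tfap2a became called with RLE factors (adjusted p = 0.048), upper-quartile factors (0.017), at least 10 counts in every sample (0.041) and unstranded counts (0.026). With upper-quartile factors the d5 against d2.5 value of Tfap2a in Ctrl+vehicle was 0.08 (adjusted p = 0.28) and that of Ets1 −0.19 (0.00071). With at least 10 counts in every sample the latter was −0.11 (0.041). The cause was not tested. Leaving out each library left 4 to 5 factors called for FGF2 at d2.5, 1 for the knockdown at d2.5, 5 to 7 for FGF2 at d5 and 5 to 6 for the knockdown at d5. Over all genes the d2.5 knockdown count then ranged from 2239 to 3814. Of the 21 genes most like a factor in pattern, 2 were also chosen by Spearman's rank correlation. Sox10, Foxd3 and Tfap2b stayed too low to read under a limit of 1 CPM in every group.

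The groups share replicate numbers in the labels, but the numbers did not pair the samples of all groups. Of 18 pairs of same-numbered libraries 2 correlated above 0.1 (range −0.1 to 0.26), both of Ctrl+vehicle with Ctrl+FGF2 at d5. In 6 pairs the same-numbered library was the one that correlated best. These were the Ctrl+vehicle and Ctrl+FGF2 pairs of both days (r from 0.00 to 0.26), so pairing of these groups was not excluded. With a replicate block 5 factors were called for FGF2 and 1 for the knockdown at d2.5, 6 and 6 at d5, and 6 and 5 for the differences between days. The block added Tfap2a for FGF2 at d2.5 (adjusted p = 0.045) and for the difference of the knockdown effect (0.039), and Ets1 for d5 against d2.5 in Ctrl+vehicle (0.048).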
